A study of Mus musculus with 9 samples.

Results

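The POU homeobox genes other than Oct4 (Pou5f1) were followed across ES cells and day 5 cultures made from them. Of the 9 genes considered, 7 had a probe set that named them alone, and these were Pou2f2, Pou3f1, Pou3f2, Pou3f3, Pou3f4, Pou4f1 and Pou6f1. They were measured by 16 of the 45101 probe sets of the array, each taken because its gene symbol was that of a member. No probe set carried the symbol of Pou2f1 or Pou4f2 alone in the annotation used here, so neither was analysed, and 1 probe set that named Pou3f3 together with another gene was left out.

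RNA was measured on 9 Affymetrix mouse arrays, 3 in each of 3 groups, all from the ES cell line Ainv15 with a doxycycline-inducible, V5-tagged Cdx2 construct. The Cdx2 and FGF cultures were collected on day 5 after retinoic acid (RA, 1 µM) and a hedgehog agonist (0.5 µM) from day 2, with doxycycline (2 µg/ml, 6 to 8 hours) on day 3 and basic FGF at 100 ng/ml. The motor neuron cultures were collected on day 5 after RA and hedgehog agonist alone, and the ES cells were untreated cells of day 0 from a feeder layer of mitomycin-treated fibroblasts. The growth protocol also gives RA and hedgehog agonist at 100 nM alongside FGF, without saying which cultures this concerned, so a lower dose of both may be part of the difference. Doxycycline, Cdx2 and FGF were given together and cannot be told apart, the construct's carrier line is present in all 3 groups, and the labels do not say whether the 3 arrays of a group came from separate cultures. P-values therefore speak of array-to-array spread only, part or all of which may be technical.

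POU proteins bind DNA through a POU-specific domain and a POU homeodomain joined by a linker, and many of them recognise the octamer sequence. Class II holds Pou2f1 (Oct1) and Pou2f2 (Oct2), which is best known from B lymphocytes and neurons. Class III holds Pou3f1 (Oct6), Pou3f2 (Brn2), Pou3f3 (Brn1) and Pou3f4 (Brn4), whose genes have no introns in their coding part and which act in neural progenitors, migrating neurons and, for Pou3f1, also in epiblast and Schwann cells. Class IV holds Pou4f1 (Brn3a) and Pou4f2 (Brn3b) of sensory and retinal neurons, and class VI holds Pou6f1.

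The start regions of Pou2f2, Pou3f2, Pou3f3 and Pou3f4 are shown because, for each of these 4 genes, the motor neuron arrays were the highest without overlap. Each runs from 250 bases before to 50 bases after the start, 5′ to 3′ on the gene's own strand, from RefSeq on GRCm38.p6. They lie at chr4:22488317-22488616 on the minus strand (Pou3f2), chr1:42695518-42695817 on the plus strand (Pou3f3), chrX:110814129-110814428 on the plus strand (Pou3f4) and chr7:25132411-25132710 on the minus strand (Pou2f2). The Pou2f2 gene spans chr7:25087350-25180797, so its window is at an internal start and not at the gene's outer 5′ end. What is said of Pou2f2 below holds for that internal start only. Capitals mark the GC box (GGGCGG) and the CCAAT box (CCAAT), each on either strand, where the last was added to the search after the sequences had been seen.
Pou3f2: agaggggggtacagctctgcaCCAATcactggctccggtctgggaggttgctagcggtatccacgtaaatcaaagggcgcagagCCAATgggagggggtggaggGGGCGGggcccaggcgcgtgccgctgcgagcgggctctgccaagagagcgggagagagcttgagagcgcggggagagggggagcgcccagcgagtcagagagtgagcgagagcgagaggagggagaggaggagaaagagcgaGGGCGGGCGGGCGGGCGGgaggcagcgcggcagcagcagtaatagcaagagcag
Pou3f3: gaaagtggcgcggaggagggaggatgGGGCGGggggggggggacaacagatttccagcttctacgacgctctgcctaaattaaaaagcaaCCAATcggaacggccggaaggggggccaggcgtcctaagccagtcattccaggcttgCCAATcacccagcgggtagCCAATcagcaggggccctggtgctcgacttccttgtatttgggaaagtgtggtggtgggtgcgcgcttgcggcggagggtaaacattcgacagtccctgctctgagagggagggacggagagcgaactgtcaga
Pou3f4: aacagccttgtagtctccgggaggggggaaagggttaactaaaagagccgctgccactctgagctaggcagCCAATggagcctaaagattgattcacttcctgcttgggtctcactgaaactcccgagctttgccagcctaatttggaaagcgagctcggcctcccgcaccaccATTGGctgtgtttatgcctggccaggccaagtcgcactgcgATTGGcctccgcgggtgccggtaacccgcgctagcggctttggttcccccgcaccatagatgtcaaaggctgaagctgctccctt
Pou2f2: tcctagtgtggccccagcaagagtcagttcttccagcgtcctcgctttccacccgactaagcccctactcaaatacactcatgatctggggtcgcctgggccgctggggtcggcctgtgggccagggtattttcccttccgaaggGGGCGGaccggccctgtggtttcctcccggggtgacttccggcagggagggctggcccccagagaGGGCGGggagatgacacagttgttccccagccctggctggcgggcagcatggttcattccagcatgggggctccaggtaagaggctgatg
CCAAT occurred 2 times in the Pou3f2 window, 3 times in that of Pou3f3 and 3 times in that of Pou3f4, and not in that of Pou2f2, while 37.4% of 32851 windows of the same length hold it. The GC box occurred 5 times at Pou3f2, where 4 of the matches overlap one another just at the start, 1 time at Pou3f3, 0 times at Pou3f4 and 2 times at Pou2f2, against 35.7% of windows with at least 1. The octamer (ATGCAAAT, 1.74% of windows) and a caudal motif of the letters TTTATNG (10.9% of windows) had no match on either strand in these 4 windows. The same held for the E-box CAGCTG (16.3% of windows), for the nuclear receptor sequence AGGTCA (16.3% of windows) and for the TATA sequence TATAAA (13.6% of windows). GC content was 67.7% at Pou3f2, 60.3% at Pou3f3, 57.7% at Pou3f4 and 64.0% at Pou2f2, against a median of 52.7% over all windows. A match is a description of the letters, and a missing match says only that these letters are not in the window.

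Values are on the log2 scale, as deposited, with a floor of 2.165 and a maximum of 16.12. A probe set was tested when it exceeded 4 on at least 3 of the 9 arrays, which 21523 probe sets did. A call needed a log2 difference of 1 or more in size together with an adjusted p under 0.05 (limma, Benjamini-Hochberg over all tested probe sets). Between 43.4% and 45% of probe sets exceeded 4 on an array. Correlations between the arrays of a group were 0.998 in Cdx2 and FGF cultures, 0.995 to 0.997 in motor neuron cultures and 0.963 to 0.973 in ES cells. The construct's gene, Cdx2, read 8.27, 8.99 and 8.59 in Cdx2 and FGF cultures, 2.17, 2.17 and 2.24 in motor neuron cultures, and 2.17 on each ES array. The ES arrays stood apart in RNA controls. The 18S ribosomal RNA control (3′ probe set) read 15.32 to 15.42 in Cdx2 and FGF cultures, 15.45 to 15.51 in motor neuron cultures and 5.86 to 6.6 in ES cells. For Actb, the 3′ control exceeded the 5′ control by -0.1 to -0.01 in Cdx2 and FGF cultures, by -0.05 to -0.03 in motor neuron cultures and by 1.87 to 2.3 in ES cells. For Tfrc the same difference was -1.74 to -1.43, -1.57 to -1.39 and 5.59 to 6.86 in the same order of groups. On the ES arrays the Tfrc 5′ control read 4.22, 2.6 and 4.1, where the 3′ control read 10.54, 9.46 and 9.69. Every comparison with ES cells below stands beside these differences, and their part in the members' values was not tested.

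Of the 16 member probe sets 12 were tested. The other 4 stayed under 4 on all 9 arrays, and these were both probe sets of Pou6f1, the second probe set of Pou4f1 (1429668_at) and a Pou3f1 probe set (1422068_at). Of the 12, 5 exceeded 4 in motor neuron cultures alone, so that they could only come out highest there. These were the 3 probe sets of Pou2f2 and one each of Pou3f3 (1422331_at) and Pou3f4 (1422165_at).

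**Figure D1:**
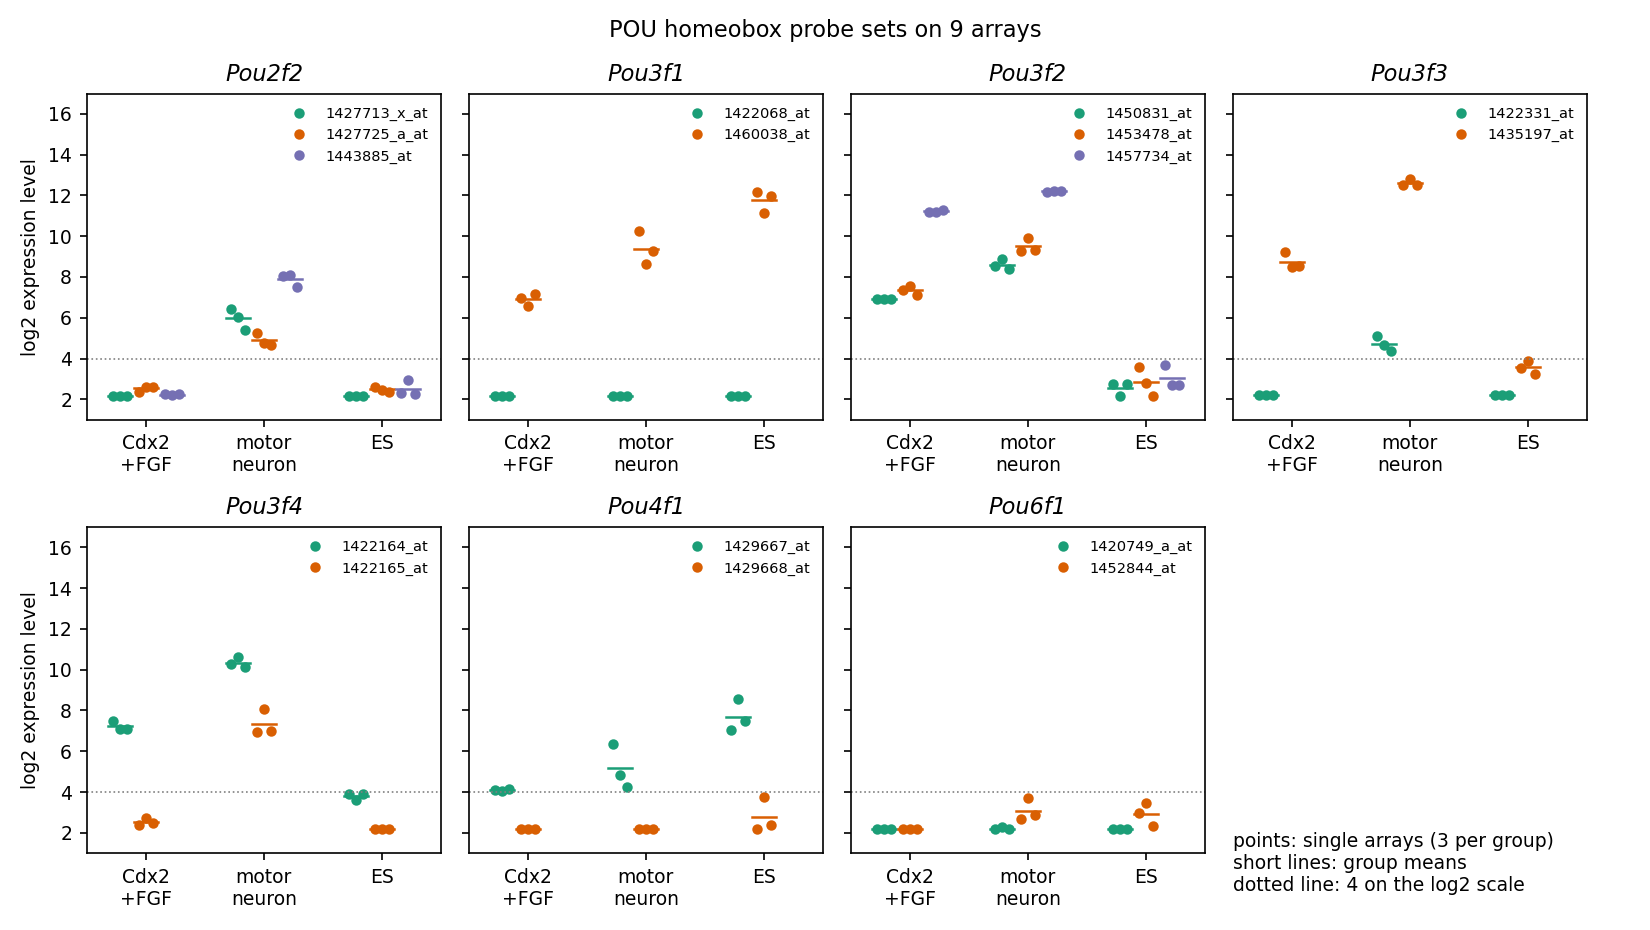
Log2 expression level (vertical axis) of the 16 POU probe sets, one panel per gene, on the arrays of the Cdx2 and FGF cultures, the motor neuron cultures and the ES cells; points are single arrays, short lines the means of 3 arrays, and the dotted line marks 4. Pou2f2, Pou3f2, Pou3f3 and Pou3f4 are highest in motor neuron cultures, Pou3f1 and Pou4f1 in ES cells, and Pou6f1 stays under 4 throughout.

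Pou3f2 was near the floor in ES cells and high in both kinds of day 5 culture. Probe set 1457734_at read 11.17, 11.18 and 11.31 in Cdx2 and FGF cultures, 12.18, 12.23 and 12.21 on the motor neuron arrays, with 3.67, 2.7 and 2.69 in ES cells. The 3 groups did not overlap, with motor neuron cultures highest and ES cells lowest. Against ES cells it was at least 296-fold higher in motor neuron cultures (log2 difference 9.19, SE 0.27, adjusted p = 6.59e-09) and at least 149-fold higher in Cdx2 and FGF cultures (8.20, SE 0.27, adjusted p = 1.59e-08). Here and below, "at least" marks a fold for which values under 4 were raised to 4. In bulk RNA such as this, fewer cells that express a gene and less RNA of it per cell cannot be told apart.

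Between the day 5 cultures the same Pou3f2 probe set differed by -0.99 (SE 0.27, adjusted p = 0.021), which misses the size needed for a call by a small margin. Its other probe sets passed. 1453478_at read 7.35, 7.54 and 7.13 in Cdx2 and FGF cultures, 9.26, 9.93 and 9.33 on the motor neuron arrays, with 3.57, 2.79 and 2.17 in ES cells, a 4.5-fold fall between the day 5 cultures (log2 difference -2.17, SE 0.37, adjusted p = 0.0021). 1450831_at read 6.94 on all 3 Cdx2 and FGF arrays, identical to the last digit, against 8.53, 8.89 and 8.4 in motor neuron cultures, and was 3.17-fold lower (log2 difference -1.67, SE 0.25, adjusted p = 0.000985). Its ES arrays read 2.77, 2.17 and 2.73. All 3 probe sets thus pointed down, with 95% intervals of -1.59 to -0.39, -3.002 to -1.339 and -2.23 to -1.11, and 2 of 3 were called. Against ES cells, 1453478_at was at least 45.5-fold higher in motor neuron cultures and at least 10.1-fold higher in Cdx2 and FGF cultures, and 1450831_at at least 24.3-fold and at least 7.67-fold (log2 differences 6.67, 4.50, 6.05 and 4.38). Size thus varied between the probe sets of Pou3f2, and the direction did not.

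Pou3f3 had the same order of groups, with motor neuron cultures highest and ES cells lowest. Probe set 1435197_at read 9.2, 8.49 and 8.53 in Cdx2 and FGF cultures, 12.49, 12.79 and 12.5 on the motor neuron arrays, with 3.55, 3.87 and 3.26 in ES cells. The groups did not overlap. Pou3f3 was 14.4-fold lower in Cdx2 and FGF cultures than in motor neuron cultures (log2 difference -3.85, SE 0.26, 95% interval -4.44 to -3.26, adjusted p = 7.02e-06). Against ES cells it was at least 386-fold higher in motor neuron cultures (9.03, SE 0.26, adjusted p = 6.51e-09) and at least 26.8-fold higher in Cdx2 and FGF cultures (5.18, SE 0.26, adjusted p = 1.78e-07). The other probe set, 1422331_at, read 2.23 on each Cdx2 and FGF array, 5.12, 4.66 and 4.37 on the motor neuron arrays, and 2.23 on each ES array. Both of its calls ended when values under 4 were raised to 4 (0.72 against ES cells, and -0.72 between the day 5 cultures).

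Pou3f4, an X-linked gene known for its role in the inner ear and the neural tube, followed the same order. Probe set 1422164_at read 7.47, 7.11 and 7.1 in Cdx2 and FGF cultures, 10.3, 10.62 and 10.13 on the motor neuron arrays, with 3.91, 3.63 and 3.91 in ES cells. The groups did not overlap. It was 8.7-fold lower in Cdx2 and FGF cultures than in motor neuron cultures (log2 difference -3.12, SE 0.23, adjusted p = 1.22e-05). It was at least 81.5-fold higher in motor neuron cultures than in ES cells (6.53, adjusted p = 1.77e-08), and at least 9.36-fold higher in Cdx2 and FGF cultures than in ES cells (3.41, adjusted p = 1.18e-06). The other probe set, 1422165_at, read 2.39, 2.74 and 2.49 in Cdx2 and FGF cultures, 6.95, 8.08 and 7.01 in motor neuron cultures, and 2.17 on each ES array. It was called between the day 5 cultures (-4.81, adjusted p = 4.83e-06) and not in Cdx2 and FGF cultures against ES cells (0.38, 95% interval -0.31 to 1.06, adjusted p = 0.293), where both groups lay under 4.

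Pou3f1 ran the other way, being highest in ES cells. Probe set 1460038_at read 6.99, 6.56 and 7.16 in Cdx2 and FGF cultures, 10.26, 8.66 and 9.26 on the motor neuron arrays, with 12.15, 11.15 and 11.98 in ES cells. The 3 groups did not overlap. Pou3f1 was 5.16-fold lower in motor neuron cultures than in ES cells (log2 difference -2.37, SE 0.41, adjusted p = 0.000609) and 5.62-fold lower in Cdx2 and FGF cultures than in motor neuron cultures (-2.49, SE 0.41, adjusted p = 0.00188). In Cdx2 and FGF cultures it was 29-fold lower than in ES cells (-4.86, SE 0.41, adjusted p = 5.66e-06). These values rest on 1 probe set, because the other, 1422068_at, read 2.17 on all 9 arrays.

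Pou2f2 exceeded 4 in motor neuron cultures and on no array of the other groups. Probe set 1443885_at read 2.24, 2.2 and 2.24 in Cdx2 and FGF cultures, 8.07, 8.08 and 7.49 on the motor neuron arrays, with 2.3, 2.95 and 2.28 in ES cells. Motor neuron cultures stood clear of both other groups, which were near the floor. Pou2f2 was at least 14.7-fold lower in Cdx2 and FGF cultures than in motor neuron cultures (log2 difference -5.65, SE 0.26, adjusted p = 7.11e-07), and at least 14.7-fold higher in motor neuron cultures than in ES cells (5.37, SE 0.26, adjusted p = 1.15e-07). The equal bounds arise because both dim groups were raised to 4. No Pou2f2 probe set was called in Cdx2 and FGF cultures against ES cells, with differences of -0.28, 0 and 0.05. 1427713_x_at read 2.17 on each Cdx2 and FGF array, 6.43, 6.06 and 5.42 on the motor neuron arrays, and 2.17 on each ES array, at least 3.91-fold higher in motor neuron cultures than in either other group. 1427725_a_at read 2.38, 2.61 and 2.61 in Cdx2 and FGF cultures, 5.27, 4.78 and 4.65 on the motor neuron arrays, with 2.61, 2.47 and 2.38 in ES cells. All 3 probe sets thus had the motor neuron arrays apart from the rest, with replicate 3 the lowest of them each time. For 1427725_a_at both calls ended when values under 4 were raised to 4, at 0.90 and -0.90. Pou2af1, the B-cell coactivator that binds Pou2f1 and Pou2f2, read 2.17 on all 9 arrays.

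Pou4f1, the class IV gene of sensory and dorsal spinal neurons, was highest in ES cells by the probe set that was tested. 1429667_at read 4.11, 4.07 and 4.14 in Cdx2 and FGF cultures, 6.38, 4.85 and 4.24 on the motor neuron arrays, with 7.04, 8.55 and 7.48 in ES cells. Neither kind of day 5 culture overlapped with ES cells. Pou4f1 was 5.8-fold lower in motor neuron cultures than in ES cells (log2 difference -2.54, SE 0.55, adjusted p = 0.00233), and the difference was -3.15 without motor neuron replicate 1. It was 12-fold lower in Cdx2 and FGF cultures than in ES cells (-3.59, SE 0.55, adjusted p = 0.000291). Between the day 5 cultures the difference of -1.05 did not pass (95% interval -2.30 to 0.20, adjusted p = 0.199), and it was -0.44 without motor neuron replicate 1, the highest of the 3.

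The second Pou4f1 probe set, 1429668_at, read 2.17 on all 6 day 5 arrays and 2.17, 3.76 and 2.4 in ES cells, so the ES level rests on 1 of 2 probe sets. Of 16 genes of sensory neurons and dorsal interneurons with a probe set, 13 lay under 4 on all arrays of the Cdx2 and FGF cultures, 12 in motor neuron cultures and 12 in ES cells, Tlx3 among them in every group. The mean level of those 16 genes was 2.83 to 2.97 in Cdx2 and FGF cultures, 2.92 to 3.22 in motor neuron cultures and 2.81 to 3.41 in ES cells. Of the sensory and dorsal genes that were tested, Prph, a neurofilament gene also found in motor neurons, was at least 26.9-fold lower in Cdx2 and FGF cultures than in motor neuron cultures (-6.46, adjusted p = 0.00156) and Ntrk2, a neurotrophin receptor, at least 8.64-fold higher (3.27, adjusted p = 2.57e-05). The feeder fibroblast list, whose 14 genes averaged 4.84 to 5.02 in Cdx2 and FGF cultures and 2.93 to 2.99 in motor neuron cultures, averaged 4.79, 7.44 and 7.12 on the ES arrays. The part of feeder cells in the ES levels of Pou4f1 and Pou3f1 was not tested.

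Pou6f1 was not detected over 4 by either probe set. 1452844_at read 2.17, 2.19 and 2.17 in Cdx2 and FGF cultures, 2.66, 3.69 and 2.88 on the motor neuron arrays, with 2.98, 3.46 and 2.33 in ES cells. 1420749_a_at stayed between 2.17 and 2.26 on all arrays. At this signal a difference in Pou6f1 was not detectable. Of 6 further POU genes that were listed for comparison, 4 had a probe set. Pou2f3, Pou4f3 and Pou5f2 lay under 4 on all 9 arrays. Pou5f1, the Oct4 gene of pluripotent cells, read 2.17 on all 6 day 5 arrays and 13.29, 12.91 and 12.41 in ES cells, at least 467-fold lower in motor neuron cultures than in ES cells (log2 difference -10.70, SE 0.25, adjusted p = 3.19e-09).

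**Figure D2:**
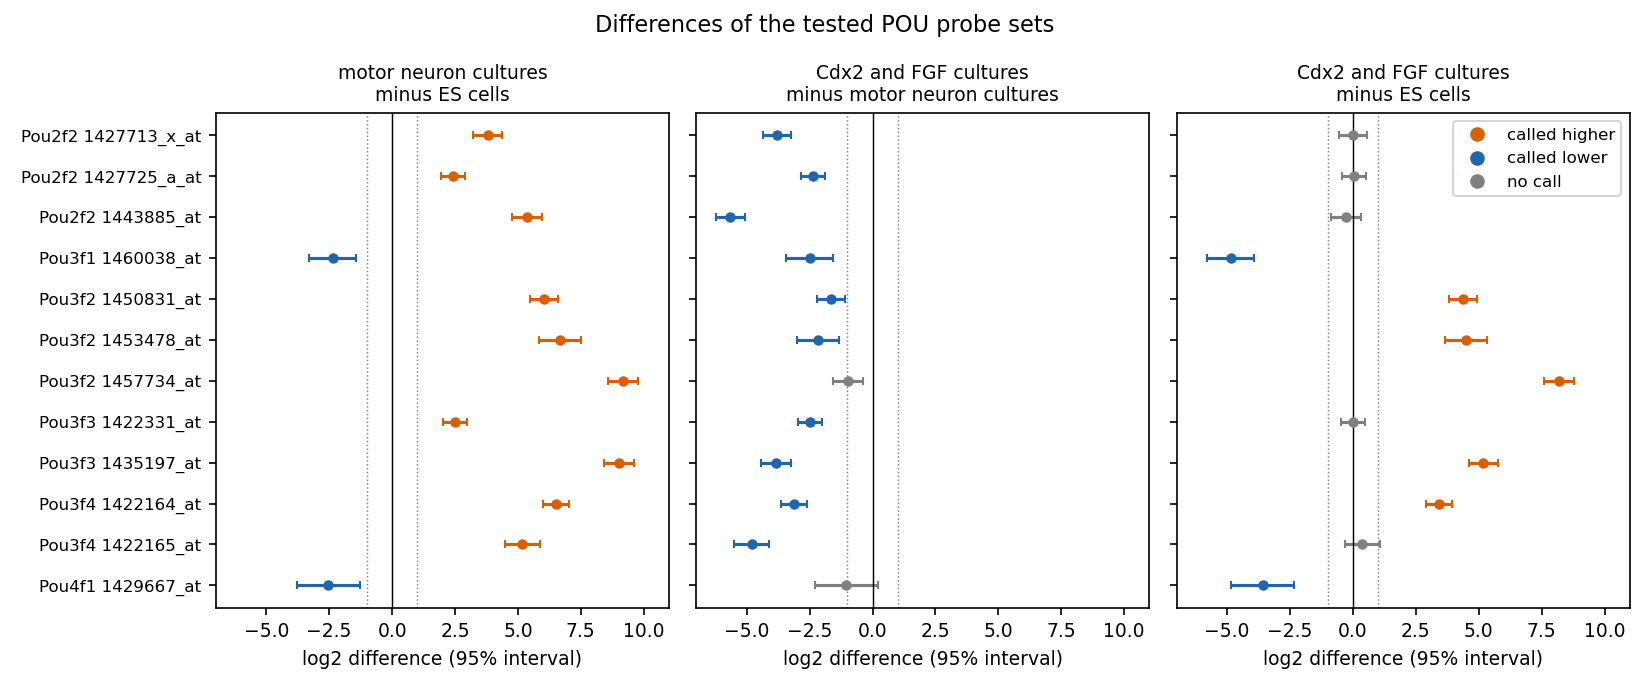
Log2 differences (horizontal axis, first-named group minus the second) of the 12 tested POU probe sets in the 3 comparisons, with 95% intervals from the limma fit of 9 arrays; dotted lines mark differences of 1 in either direction. In the comparison of Cdx2 and FGF cultures with motor neuron cultures all 12 points lie below 0, and the 2 in grey are those of Pou3f2 1457734_at and Pou4f1.

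The first comparison asked what changed with differentiation to day 5. Of the 12 tested member probe sets, 10 exceeded ES cells in motor neuron cultures and 2 fell below them, against 31.9% of all tested probe sets higher and 27.9% lower. The 10 belonged to Pou2f2, Pou3f2, Pou3f3 and Pou3f4, and the 2 to Pou3f1 and Pou4f1. None of the 12 overlapped between these groups, where 39.7% of all tested probe sets were higher and 35.5% lower without overlap. The median difference was 5.27 for the members and 0.10 for all tested probe sets. Because 5 of the 12 entered the test through motor neuron arrays alone, neither the count nor the median is support for a shift of the family.

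The effect of Cdx2 induction together with FGF on day 5 cultures was the next question. Of the 12 tested member probe sets, 10 were lower and 0 higher in Cdx2 and FGF cultures than in motor neuron cultures, against 8.57% of all tested probe sets lower and 10.9% higher. By the same limma fit 11 were lower and 0 higher at an unadjusted p under 0.05. The 10 belonged to Pou2f2, Pou3f1, Pou3f2, Pou3f3 and Pou3f4, and the median difference was -2.49, against 0.04 for all tested probe sets. Without overlap between the arrays of both groups, 12 member probe sets were lower and 0 higher in Cdx2 and FGF cultures, against 26.7% of all tested probe sets lower and 34.2% higher. The 5 probe sets tested through motor neuron arrays alone could only fall here, and the other 7 included 5 of the 10 calls.

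The third comparison set Cdx2 and FGF cultures against ES cells. Here 5 of the 12 probe sets were higher and 2 lower, against 31.4% and 24.7% of all tested probe sets. Those higher were the 3 of Pou3f2, 1435197_at of Pou3f3 and 1422164_at of Pou3f4, and those lower were of Pou3f1 and Pou4f1. Without overlap, 6 were higher and 3 lower, against 41.3% and 32.9% of all tested probe sets. Those beyond the calls were 1422165_at of Pou3f4 and 1443885_at of Pou2f2, which lay under 4 in both groups. The median difference was 0.21, against 0.14 for all tested probe sets. The 5 probe sets without a call were those over 4 in motor neuron cultures alone. They lay under 4 in both groups compared here, and they enter the median. The comparisons share groups of arrays, so their values are given side by side and not as separate evidence.

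Gene lists for other cell types and programmes were read in the same comparison. Each list count below stands beside the shares over all tested probe sets given above for its comparison. Between the day 5 cultures, 22 of 23 tested pan-neuronal genes were lower and 0 higher in Cdx2 and FGF cultures (23 lower and 0 higher at an unadjusted limma p under 0.05), with a median difference of -4.12. Among them Syt1 and Scrt1 exceeded 4 in motor neuron cultures alone, so they could only fall here. The list's mean level was 7.37 to 7.75 in Cdx2 and FGF cultures, 11.03 to 11.75 in motor neuron cultures and 5.86 to 6.44 in ES cells. Dcx, a microtubule protein of young neurons, averaged 5.70 ± 1.10 in Cdx2 and FGF cultures and 12.83 ± 0.36 in motor neuron cultures (SD, n = 3 each). In the list of motor neuron and ventral progenitor genes 7 of 10 were lower and 0 higher (8 and 0 at an unadjusted limma p under 0.05). The mean level of this list was 6.64 to 6.77 in Cdx2 and FGF cultures, 8.78 to 9.25 in motor neuron cultures and 3.48 to 3.56 in ES cells. Nhlh2 and Cntn2, a bHLH factor and an axonal adhesion molecule of young neurons, were both 39-fold lower in Cdx2 and FGF cultures (log2 differences -5.29 and -5.28, adjusted p = 9.34e-07 and 2.54e-06). Slc18a3, the vesicular acetylcholine transporter, was at least 134-fold lower, Nkx2-2, of ventral progenitors, 18-fold lower and Lhx4, a motor neuron factor, 14.2-fold lower (-7.17, -4.17 and -3.83). Nkx6-1, Olig2 and Nkx6-2, of the motor neuron and ventral progenitor list, were not called (0.01, -0.89 and -0.14). Nkx6-1 averaged 12.06 in Cdx2 and FGF cultures and 12.04 in motor neuron cultures. Mnx1, a defining motor neuron factor, read 6.72, 6.19 and 6.7 in Cdx2 and FGF cultures, against 10.64, 10.04 and 9.36 on the motor neuron arrays, with 2.94, 2.55 and 2.17 in ES cells. Chat and Slc5a7, genes of mature cholinergic neurons, lay under 4 on all 9 arrays.

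Of 15 tested neural progenitor genes, 2 were lower in Cdx2 and FGF cultures than in motor neuron cultures and 1 higher. At an unadjusted limma p under 0.05, 8 were lower and 2 higher, and the median difference was -0.67. Hes5, a Notch target, was 4.42-fold lower (-2.15, adjusted p = 0.000203) and Slc1a3, a glutamate transporter of radial glia, 6.17-fold higher (2.62, adjusted p = 0.00695). In Cdx2 and FGF cultures 8 of 9 tested genes of the mesoderm and tail bud list exceeded motor neuron cultures and 0 fell below (9 and 0 at an unadjusted limma p under 0.05), Meox1, a gene of somites, among them at 10.95 ± 0.18 (SD, n = 3), against 2.17 in motor neuron cultures, at least 123-fold higher. That list includes Cdx2 itself, the gene chosen for induction, so its rise is no support for a shift of the list. Whether its day 5 level came from the construct or from the cells' own gene was not tested. Meox1, Foxc1, Cdx2 and Cdx4 exceeded 4 in Cdx2 and FGF cultures alone, so they could only come out higher there. Acta2 and Tagln, of smooth muscle and myofibroblasts, were at least 517-fold and at least 330-fold higher (9.72 and 9.25). In the fibroblast list 6 of 9 were higher and 0 lower (7 and 0 at an unadjusted limma p under 0.05). The part of these other cell types in the members' differences was not tested.

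Of 12 tested partners of POU factors, among them the SOX genes that bind DNA beside POU proteins, 0 were called between the day 5 cultures (limma, with 2 higher and 4 lower at an unadjusted p under 0.05), and the median difference was -0.13. Motor neuron cultures exceeded ES cells for 4 of them and fell below for 3. Over all tested probe sets the shares were 31.9% and 27.9%. With 1 probe set per gene, as in the list, 2826 of 10911 genes were higher and 3346 lower. The median difference was 0.12, against 0.10 for all tested probe sets and -0.08 with 1 probe set per gene. Sox3, of the class of SOX genes found in neural progenitors, read 8.81, 9.26 and 9.51 in Cdx2 and FGF cultures, 10.58, 10.71 and 11.05 on the motor neuron arrays, with 5.13, 2.68 and 4.08 in ES cells, at least 83-fold higher in motor neuron cultures than in ES cells (adjusted p = 2.66e-06). Sox1 was 3.52-fold higher in motor neuron cultures than in ES cells and Nfyb, a subunit of the factor that binds the CCAAT box, 5.98-fold lower (log2 differences 1.81 and -2.58). Sox2, also of this list, was 3.32-fold lower in motor neuron cultures than in ES cells (-1.73, limma adjusted p = 6.6e-08). The SOX genes of the list thus did not share 1 direction.

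Genes described elsewhere as targets of class III or class IV POU factors were listed as well. In motor neuron cultures 7 of 10 tested were higher than in ES cells and 0 lower (7 and 1 at an unadjusted limma p under 0.05), with a median difference of 4.12. In Cdx2 and FGF cultures 5 of 10 were lower than in motor neuron cultures and 0 higher (5 and 1 at an unadjusted limma p under 0.05), with a median of -1.21. Fabp7, a fatty acid binding protein of radial glia, averaged 7.02 ± 0.43 in Cdx2 and FGF cultures, 12.91 ± 0.62 in motor neuron cultures and 2.41 ± 0.41 in ES cells. It was 59.5-fold lower in Cdx2 and FGF cultures than in motor neuron cultures (log2 difference -5.90, adjusted p = 4.87e-06). Snap25 and Ina, a synaptic protein and an intermediate filament of neurons, were lower there too, with log2 differences of -4.19 each (adjusted p = 3.25e-05 and 3.46e-05). Nes, the intermediate filament gene with a neural enhancer that binds class III factors, averaged 10.25 ± 0.03 in Cdx2 and FGF cultures, 10.82 ± 0.04 in motor neuron cultures and 6.59 ± 1.84 in ES cells and was not called between the day 5 cultures (-0.57, adjusted p = 0.638). Several of these genes belong to the neuronal and progenitor lists too.

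Formative epiblast genes were listed because Pou3f1 marks that state in mouse. In motor neuron cultures 8 of 10 tested were lower than in ES cells and 2 higher, with a median difference of -5.18. Dnmt3l and Utf1 were at least 297-fold and at least 86-fold lower. Otx2 read 2.17 on all 6 day 5 arrays and 11.16, 9.44 and 8.99 in ES cells. Dnmt3l, Utf1 and Otx2 exceeded 4 in ES cells alone, so they could only come out lower here. Fgf5, a defining gene of the epiblast, lay under 4 on all 9 arrays. In the pluripotency list 16 of 16 were lower in motor neuron cultures than in ES cells and 0 higher (16 and 0 at an unadjusted limma p under 0.05). Of these 16 genes 13 lay under 4 on all motor neuron arrays. Most of the list, Nanog among it, exceeded 4 in ES cells alone and could only come out lower. The count is therefore no support for a shift of the list.

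Among motor column and pool genes 5 of 12 tested were lower in Cdx2 and FGF cultures than in motor neuron cultures and 3 higher, with a median difference of -1.35. Pou3f1 is itself known as a marker of phrenic and some limb motor neurons. Alcam, an adhesion molecule also used to mark phrenic neurons, averaged 3.66 ± 0.28 in Cdx2 and FGF cultures and 8.38 ± 0.28 in motor neuron cultures, at least 20.9-fold lower (log2 difference -4.73, adjusted p = 1.51e-05), and 11.02 ± 0.72 in ES cells. Like Pou3f1, it was therefore highest in ES cells. Hoxc9, a gene of thoracic level, was at least 71.9-fold higher in Cdx2 and FGF cultures than in motor neuron cultures (8.00, adjusted p = 2.6e-08), and Hoxc5, a cervical gene, 31.1-fold lower (-4.96, adjusted p = 1.33e-05). Hoxc9 exceeded 4 in Cdx2 and FGF cultures alone, and Lhx1, of the same list, in motor neuron cultures alone. Each could only come out highest there. Glial genes gave 1 higher and 1 lower of 5 tested, and Sox10, which marks Schwann cell precursors, lay under 4 on all 9 arrays.

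**Figure D3:**
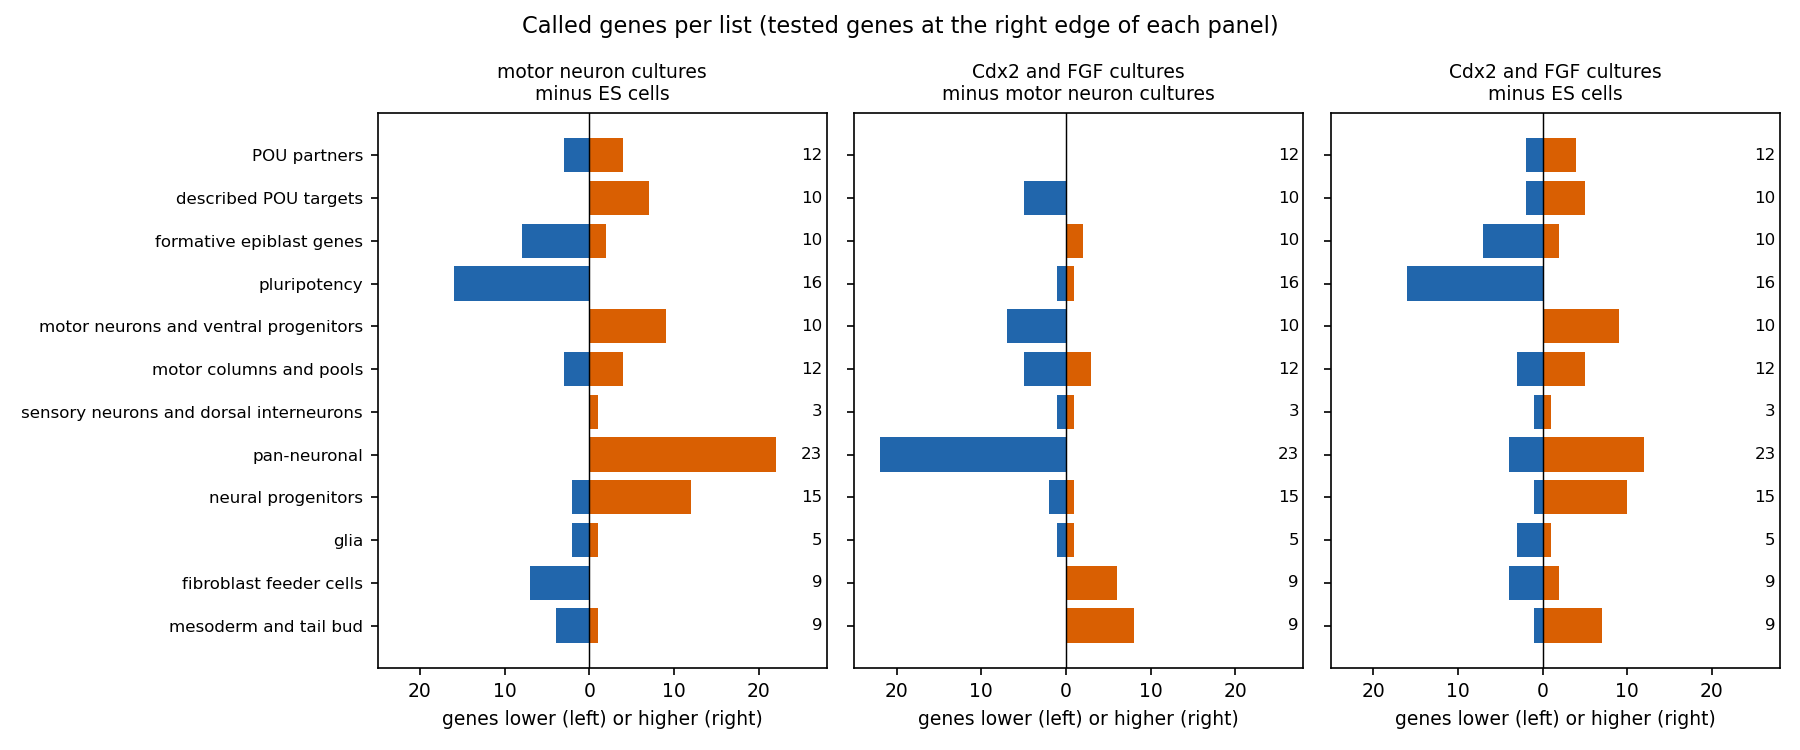
Number of genes called higher (right of 0) or lower (left of 0) in 12 lists for each of the 3 comparisons, with the number of tested genes at the right edge of each panel. The pan-neuronal bar points right in motor neuron cultures against ES cells (22 of 23) and left in Cdx2 and FGF cultures against motor neuron cultures (22 of 23), while the mesoderm and tail bud bar points right there (8 of 9). The mesoderm and tail bud list includes Cdx2, the induced gene, and other genes over 4 in Cdx2 and FGF cultures alone. The pan-neuronal list includes Syt1 and Scrt1, over 4 in motor neuron cultures alone, and most of the pluripotency list exceeded 4 in ES cells alone.

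The genes with the nearest profiles over the 9 arrays were found among 10905 tested genes by the root mean square difference between profiles, with each profile centred on its own mean and values under 4 raised to 4. This is a description over 9 arrays in 3 groups and carries no p. All ES values of Pou3f2, Pou3f3 and Pou3f4 were raised to 4. Closeness in ES cells to genes also under 4 there therefore comes from the raising. For Pou3f3 the 3 nearest were Hoxa5 (0.32), Pantr1 (0.33) and Gm16551 (0.34). Pantr1 is a long noncoding RNA gene of chromosome 1, and in RefSeq on GRCm38.p6 a count of 1 gene lies between it and Pou3f3. It read 8.11, 8.07 and 8.11 in Cdx2 and FGF cultures, 12.3, 12.31 and 12.05 in motor neuron cultures and 2.17 on each ES array. It was 17.4-fold lower in Cdx2 and FGF cultures than in motor neuron cultures (log2 difference -4.12, adjusted p = 6.58e-07), beside 14.4-fold for Pou3f3. Of the 18 nearest genes of the 6 members, Pantr1 was the one on the member's own chromosome.

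For Pou3f4 the nearest were Onecut1 (0.22), a factor of early motor neurons, Crtac1 (0.23) and Arhgap33 (0.27). Onecut1 averaged 6.88 in Cdx2 and FGF cultures, 9.96 in motor neuron cultures and 2.21 in ES cells. For Pou3f2 they were Rfx4 (0.33), Neurod4 (0.36) and Nhlh1 (0.44), where Neurod4 and Nhlh1 are bHLH factors of young neurons. For Pou2f2 they were Adcyap1r1 (0.06), a neuropeptide receptor gene, Svop (0.07) and Moxd1 (0.09), where the small distances come with values raised to 4 in both other groups. For Pou3f1 the nearest, Cdc42ep3, Tdrp and Ckmt1, lay at 0.48 to 0.56, and for Pou4f1 Nt5dc3, Ctns and Pcolce2 at 0.43 to 0.52.

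**Figure D4:**
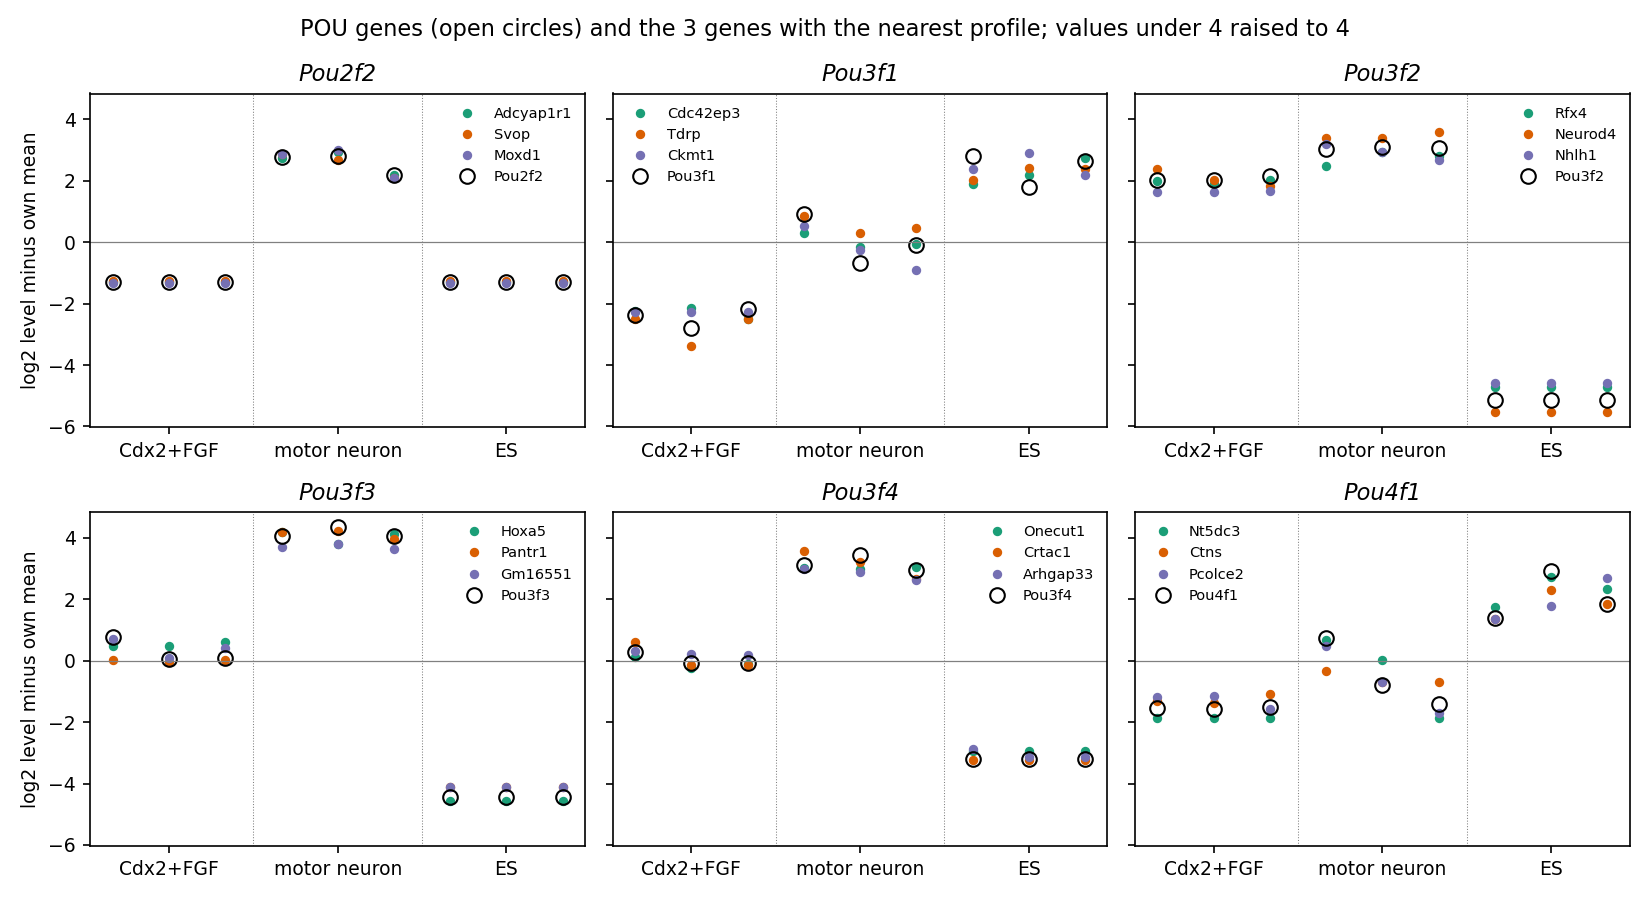
Log2 level minus the gene's own mean over 9 arrays (vertical axis) for 6 POU genes (open circles) and the 3 genes with the nearest profile (filled points), by array within the Cdx2 and FGF cultures, the motor neuron cultures and the ES cells, with values under 4 raised to 4. Pantr1 lies close to Pou3f3, and Onecut1 to Pou3f4, in both kinds of day 5 culture. In ES cells all values of these genes were under 4 and were raised to 4, so their closeness there is not a result.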

How the data were processed

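Amplification and labelling used NuGEN Ovation reagents, per the labels' protocols. The log2 expression levels per probe set were deposited by the authors, and, per the submitters' processing notes, the tools were GCRMA and limma, with no version or setting recorded. That they are log2 follows from their range, and no further normalization was applied.

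Gene symbols came from the platform annotation: 34958 of 45101 probe sets named 1 symbol, 932 several, and 9211 none here. The RefSeq table of GRCm38.p6 held the Entrez identifiers of 34754 of them, and 0 symbols differed. The 64 Affymetrix controls were not tested.

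One limma 3.58.1 model (R 4.3.3; lmFit and trended eBayes) of the group means took in the whole set of 9 arrays, with 6 residual degrees of freedom, each probe set by itself. The fit was tested on simulated data. Standard deviations are over the 3 arrays of a group and standard errors come from the fit. The number of arrays limits the precision.

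The members, the 13 gene lists (a gene taken by its probe set with the highest mean) and the tests were chosen with earlier results of these data known. Named genes were all member probe sets, the further POU genes, up to 3 called genes per list and comparison with the largest difference and no overlap, and the 3 nearest profiles of each called member. Pou2af1, Tlx3, Mnx1, Chat, Slc5a7, Fgf5, Sox10 and Nes were added as background after their values were seen. Promoter sequences are from RefSeq, where 8 of 9 members had an entry. The alternatives tried are given in the closing section.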

Additional observations from a re-analysis of the deposited data

How the results depend on the processing

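Over 21 alternative settings, 717 values of member probe sets counted as unchanged, 4 lost their call and 2 gained one, and no called value changed sign. Of all these values 711 were of tested probe sets, where unchanged meant the same side of the threshold. For the untested ones, compared only without the filter, it meant a difference that moved by less than the arrays' SD. Among values without a call, Pou2f2 changed sign in Cdx2 and FGF cultures against ES cells, where 1443885_at came to 0.15 with arrays centred on their medians and 1427725_a_at to -0.0075 without ES replicate 3. The losses were those of Pou2f2 1427725_a_at and Pou3f3 1422331_at with values under 4 raised to 4. The gains were of Pou3f2 1457734_at between the day 5 cultures, at -1.0035 with array weights and -1.61 with the gene's probe sets averaged. With 1 probe set per gene, the member counts against ES cells were 4 genes higher for motor neuron cultures and 3 for Cdx2 and FGF cultures, and 4 were lower between the day 5 cultures. With a gene's probe sets averaged they were 4, 3 and 5. These count genes and not probe sets. The counts over all features, also of genes, were 2826 higher and 3346 lower for motor neuron cultures against ES cells, 1220 and 939 between the day 5 cultures, and 2774 and 2971 for Cdx2 and FGF cultures against ES cells with 1 probe set per gene. They were 2933 and 2518, 1058 and 821, and 2929 and 2102 with the mean of the probe sets. The share of calls that were higher was 45.8% and 48.3% against ES cells with 1 probe set per gene, and 53.8% and 58.2% with the mean, beside 53.3% and 56% over probe sets, and the cause of this difference was not tested. With arrays centred on their medians, the median difference over all tested probe sets moved from 0.10 to 0.54 in motor neuron cultures against ES cells and from 0.14 to 0.58 in Cdx2 and FGF cultures against ES cells. It moved the share of calls that were higher from 53.3% to 64.3% and from 56% to 68.4%, and no call of a member changed.

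Leaving out 1 array at a time, the member counts were 10 higher and 2 lower, 0 and 10, and 5 and 2 in the 3 comparisons each time. Over all probe sets the counts ran from 6572 to 6877 higher and 5715 to 6041 lower in motor neuron cultures against ES cells. They ran from 1844 to 2496 and 1563 to 1950 between the day 5 cultures, and from 6428 to 6759 and 5103 to 5367 in Cdx2 and FGF cultures against ES cells. The arrays were not treated as paired by replicate number. Of 9 same-numbered pairs, correlations of deviations ran from -0.028 to 0.106. Between the day 5 cultures they were 0.035, 0.106 and 0.07, and from -0.14 to 0.041 for arrays of different number. With 3 arrays per group this cannot exclude a pairing. A fit with the replicate block gave 10 member probe sets higher and 2 lower, 0 and 10, and 5 and 2, and 2313 and 1815 calls over all probe sets between the day 5 cultures. Of the members, Pou6f1 and all probe sets under 4 are limited by signal over background.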
